A study of Mus musculus with 6 samples.

Results

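The genes described here are 9 that encode proteins of fatty acid uptake and binding, namely Cd36, Slc27a1, Slc27a3, Slc27a4, Cav1, Fabp3, Fabp4, Fabp5 and Aqp7. They were taken by gene symbol from the count and FPKM tables, which list 55039 genes, and each symbol matched 1 gene. The tissue was the white fat pad attached to the epididymis (eWAT), from 3 male C57BL/6 mice with Lewis lung carcinoma (LLC) tumors, a model of cancer-associated cachexia (CAC), and from 3 male C57BL/6 controls given phosphate-buffered saline (CONT). LLC is a mouse lung carcinoma line, injected under the skin of mice that were 6 to 7 weeks old at the start, and tissue was taken 28 days after injection. Each library came from the poly(A) RNA of 1 mouse. Libraries were made from whole tissue, so for every gene below fewer cells of a type and less RNA per cell cannot be told apart.

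Adipocytes take up long-chain fatty acids that lipoprotein lipase releases from circulating triglyceride. Cd36, a membrane receptor, and the fatty acid transport proteins (FATP, encoded by the Slc27a genes), which also join fatty acids to coenzyme A, act at or near the cell membrane. Caveolin 1, encoded by Cav1, forms the coat of caveolae, the membrane pits that are abundant in adipocytes. Inside the cell, fatty acid binding proteins (FABP) carry fatty acids between membranes and organelles, and Fabp4 is the best known FABP of adipocytes. Aqp7 is an aquaglyceroporin, a channel through which glycerol leaves the adipocyte during lipolysis.

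In the annotation of build GRCm38, all 9 are protein-coding genes, and the intervals in the table were those of GENCODE M21. Cd36 lies on the minus strand of chromosome 5 (chr5:17781690-17888801). The FATP genes lie on chromosome 8 (Slc27a1, chr8:71568882-71587302, plus strand), chromosome 3 (Slc27a3, chr3:90385239-90389938, minus strand) and chromosome 2 (Slc27a4, chr2:29802634-29817522, plus strand). Cav1 is on the plus strand of chromosome 6 (chr6:17306335-17341452) and Aqp7 on the minus strand of chromosome 4 (chr4:41033074-41048139). Fabp4 (chr3:10204088-10208576, minus strand) and Fabp5 (chr3:10012548-10016607, plus strand) share chromosome 3, while Fabp3 is on chromosome 4 (chr4:130308595-130315463, plus strand). The principal transcript of each of these 3 FABP genes has 4 exons.

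RefSeq promoter windows of 300 bases (GRCm38.p6) were held for 7 of the 9 genes, in 11 windows. Fabp4 and Fabp5 had no entry. The 4 windows below are shown because Cd36, Cav1 and Aqp7 were low together in CAC 2 and CAC 3, while Slc27a1 was high in all 3 CAC libraries. Each is printed 5′ to 3′ on the strand of its gene, and capitals mark AGGTCA or its reverse complement TGACCT, the half-site bound by nuclear receptors such as PPARγ.
Cd36, chr5:17835847-17836146, minus strand: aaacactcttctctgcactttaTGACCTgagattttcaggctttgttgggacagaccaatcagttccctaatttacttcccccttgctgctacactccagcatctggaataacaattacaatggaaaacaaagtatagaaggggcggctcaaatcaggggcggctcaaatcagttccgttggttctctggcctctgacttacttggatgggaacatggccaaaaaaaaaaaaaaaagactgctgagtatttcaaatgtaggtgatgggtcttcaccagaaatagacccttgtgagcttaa
Aqp7, chr4:41047913-41048212, minus strand: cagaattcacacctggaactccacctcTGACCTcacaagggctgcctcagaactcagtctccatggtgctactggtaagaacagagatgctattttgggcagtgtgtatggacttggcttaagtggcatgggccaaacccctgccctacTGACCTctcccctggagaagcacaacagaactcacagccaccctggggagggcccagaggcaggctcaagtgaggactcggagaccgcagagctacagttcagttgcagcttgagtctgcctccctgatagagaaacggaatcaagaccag
Cav1, chr6:17306085-17306384, plus strand: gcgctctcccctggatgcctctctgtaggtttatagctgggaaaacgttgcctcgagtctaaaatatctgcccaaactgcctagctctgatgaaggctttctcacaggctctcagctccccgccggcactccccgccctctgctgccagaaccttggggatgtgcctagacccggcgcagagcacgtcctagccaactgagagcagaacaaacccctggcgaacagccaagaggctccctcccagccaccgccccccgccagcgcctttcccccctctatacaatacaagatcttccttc
Slc27a1, chr8:71568621-71568920, plus strand: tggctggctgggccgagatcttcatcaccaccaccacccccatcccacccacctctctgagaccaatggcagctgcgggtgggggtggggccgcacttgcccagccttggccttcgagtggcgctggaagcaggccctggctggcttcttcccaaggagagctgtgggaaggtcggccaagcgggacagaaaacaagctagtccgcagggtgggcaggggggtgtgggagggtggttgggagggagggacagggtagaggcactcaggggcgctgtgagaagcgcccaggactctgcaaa
The half-site was found 228 bases before the start site of the Cd36 window, and 223 and 101 bases before that of the Aqp7 window shown. The Cd36 start site, chr5:17835896, lies inside the gene interval given above and not at its 5′ end. A second Aqp7 window overlaps the first and holds the first of these half-sites again, 49 bases before its own start site. None of the 3 windows of Slc27a1 or the 2 of Cav1 held these letters. The motif was searched on both strands and was present in 3 of the 11 windows, against 16.3% of all 32851 RefSeq promoter windows of this length. The direct repeat of AGGTCA with 1 base of any kind between the copies, the form bound by PPAR and RXR together, was in 0 of the 11 windows and in 0.0396% of all windows. TATAAA, also searched on both strands, was in 1 of the 11, the Cav1 window shown, where it is on the opposite strand and reads tttata, and in 13.6% of all windows. These are matches of letters only, and binding was not measured.

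The libraries held from 15713794 to 25926425 counts, and 1 CPM (counts scaled to the TMM-adjusted library size) stood for 11.2 to 26.5 reads. CONT 1 stood apart from the other controls. Genes of the mitochondrial genome took 30.2% of its counts and from 3.89% to 5.04% in the other 5 libraries, and 33.2% of the 17296 genes tested differed by more than 1 on the log2 scale between CONT 1 and the mean of CONT 2 and CONT 3. CAC 1 stood apart from CAC 2 and CAC 3 at many of the genes below, so fold changes with 1 or both of these libraries left out are given beside several results. Of 10 adipocyte marker genes, none was at 0 in any group, and their summed level, most of it Cfd and Car3, ran from 27158 to 49803 CPM in CONT and from 43925 to 54500 CPM in CAC. The log2FC was under 0 for 4 of them, Lep (-1.56), Retn (-0.72), Lipe (-0.27) and Plin1 (-0.25), and above 0 for the other 6. Of the 10, 1 gene, Pnpla2, the lipase of the first step of lipolysis, had an unadjusted p under 0.05, with a log2FC of 1.36 (SE 0.32, edgeR adjusted p = 0.238, DESeq2 adjusted p = 4.41e-06, limma adjusted p from voom 0.0386). In the edgeR fit, 0% of the 17296 genes reached an adjusted p under 0.05, while 13.3% were under 0.05 before adjustment. DESeq2 called 5.55% of 17292 genes at an adjusted p under 0.05 (3.18% on the higher side), and voom with sample quality weights called 5.53%.

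Slc27a1 was the member with the largest difference between the groups. Its level was 271, 471 and 777 CPM in CONT 1, 2 and 3 and 2081, 3017 and 3443 CPM in CAC 1, 2 and 3. All 3 CAC mice were above all 3 controls, and the lowest CAC level was well over the highest control level. Slc27a1 encodes FATP1, the FATP of adipocytes and muscle. The group means were 506 ± 255 CPM in CONT and 2847 ± 697 CPM in CAC (SD, n = 3 each), which gave a log2FC of 2.49 (SE 0.48). It ranked 116th of the 17296 genes by p (edgeR unadjusted p = 0.00149) but did not pass adjustment over all genes (edgeR adjusted p = 0.215). DESeq2 gave a log2FC of 2.52 (SE 0.44) and called the gene (DESeq2 adjusted p = 2.56e-06), as did voom with sample quality weights (limma adjusted p = 0.0285). When single libraries were omitted, the log2FC stayed between 2.20 and 2.95 in edgeR, and it was 2.40 without CONT 1 and CAC 1. DESeq2 called Slc27a1 with each single library omitted, in fits in which it called 11.3% (without CONT 1), 3.36% (without CONT 2), 4.68% (without CONT 3), 7.84% (without CAC 1), 4.06% (without CAC 2) and 3.32% (without CAC 3) of the genes tested.

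The 2 other FATP members, Slc27a4 and Slc27a3, had smaller log2FC and overlapping groups. Slc27a4 encodes FATP4, which many tissues express, and its level was 57.9, 38.1 and 57.4 CPM in CONT 1, 2 and 3 and 42.0, 36.6 and 48.7 CPM in CAC 1, 2 and 3. The groups overlapped, with a log2FC of -0.27 (SE 0.23, edgeR adjusted p = 0.626) that ran from -0.44 to -0.16 with 1 library left out, the latter without CONT 1. Slc27a3, which encodes FATP3, was at 9.45, 8.23 and 10.7 CPM in the controls and at 8.87, 8.84 and 6.04 CPM in CAC. CAC 3 alone lay below the lowest control, and the log2FC was -0.26 (SE 0.29, edgeR adjusted p = 0.733), or -0.087 without CAC 3.

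**Figure D1:**
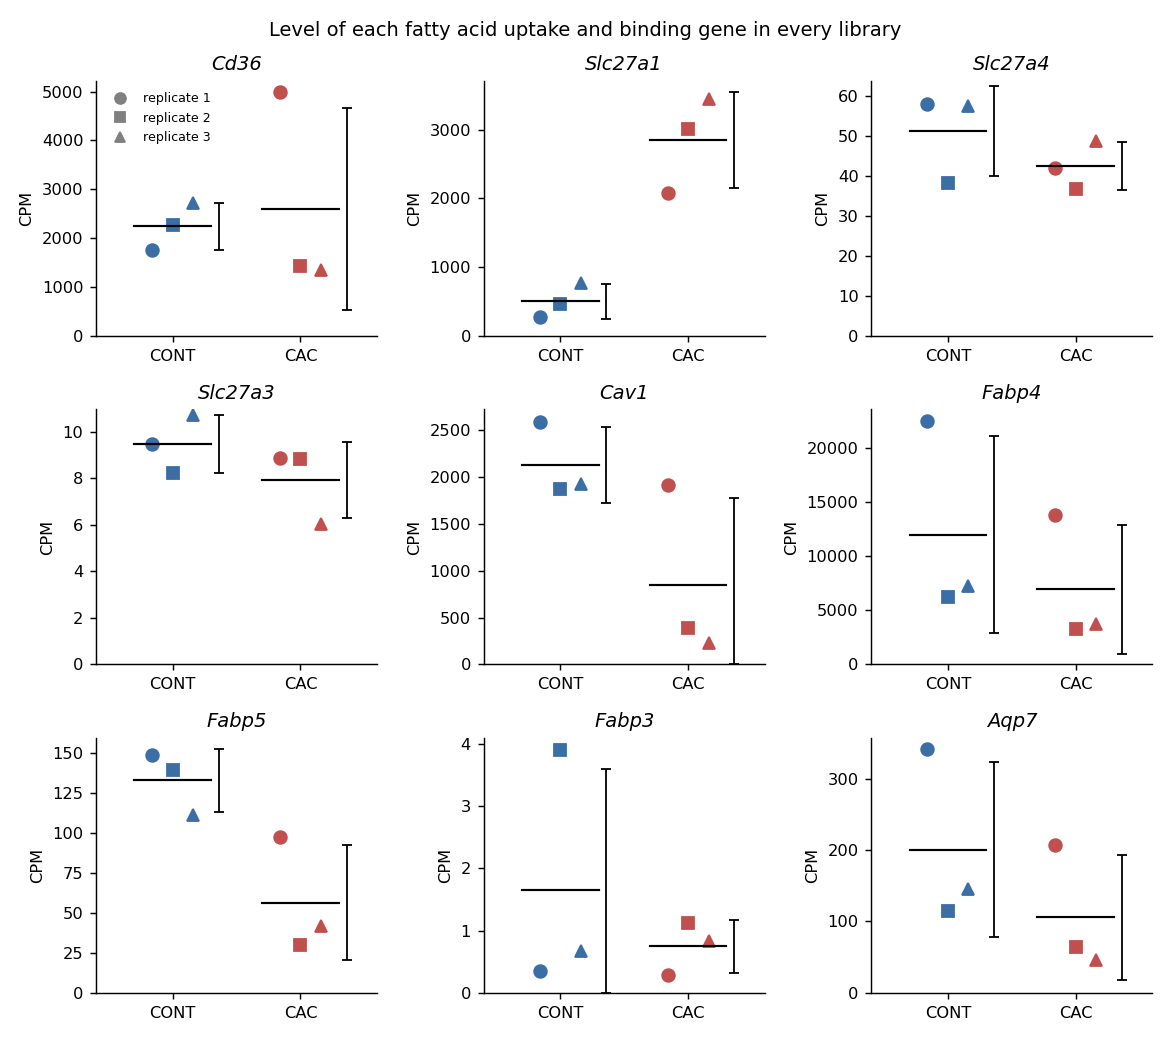
Level of each of the 9 genes in CPM (linear axis from 0) in every CONT library (blue) and CAC library (red). Horizontal lines are group means, bars beside the points are 1 SD (n = 3, cut at 0 where the SD exceeds the mean), and symbols give the replicate number. Slc27a1 and Fabp5 are the 2 genes whose groups do not overlap, and CAC 1 (circle) lies above CAC 2 and CAC 3 for Cd36, Cav1, Fabp4, Fabp5 and Aqp7.

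Cd36 differed more among the CAC mice than between the groups. Its level was 1753, 2266 and 2719 CPM in the controls, and 4992 CPM in CAC 1 against 1439 and 1360 CPM in CAC 2 and CAC 3. CAC 1 was above every control, and CAC 2 and CAC 3 were below every control. The means were 2246 ± 484 CPM in CONT and 2597 ± 2075 CPM in CAC, and the log2FC was 0.21 (SE 0.58, edgeR adjusted p = 0.906). Without CAC 1 it was -0.63 (SE 0.31, edgeR adjusted p = 0.506), so the sign rests on 1 library, and without CONT 1 it was 0.074. Voom (-0.47) and limma on FPKM (-0.026 with either pseudocount) also gave a log2FC under 0 with all libraries.

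Cav1 was near the control level in CAC 1 and far below it in the other CAC mice. It was at 2594, 1870 and 1931 CPM in the controls, at 1922 CPM in CAC 1, and at 394 and 233 CPM in CAC 2 and CAC 3. The log2FC was -1.33 (SE 0.79, edgeR adjusted p = 0.494) with all libraries. It was -2.72 (SE 0.42, edgeR adjusted p = 0.170) without CAC 1, -0.97 without CAC 2, -0.87 without CAC 3, -1.14 without CONT 1 and -2.56 without CONT 1 and CAC 1. With all libraries voom gave -2.08 (limma adjusted p = 0.0791) and limma on log2(FPKM + 1) gave -1.88 (limma adjusted p = 0.329). DESeq2 did not call Cav1 with all libraries (DESeq2 adjusted p = 0.341) and called it without CAC 1 (DESeq2 adjusted p = 8.87e-11). An antisense gene that overlaps Cav1, Gm15581, held 8 reads in all against 177247 for Cav1.

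Among the cytosolic binding proteins, Fabp4 was the most abundant. Its level was 22460, 6182 and 7283 CPM in CONT 1, 2 and 3 and 13836, 3233 and 3750 CPM in CAC 1, 2 and 3. In each group the first replicate was the high one, and CAC 2 and CAC 3 were below every control. The log2FC was -0.79 (SE 0.80, edgeR adjusted p = 0.694), it was -1.76 without CAC 1 and 0.059 without CONT 1, so its direction depended on CONT 1. With both of these libraries left out, a fit of 2 against 2 added after the data were seen, the log2FC was -0.92 (SE 0.17, edgeR adjusted p = 0.137).

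Fabp5, an FABP first known from the epidermis and also made by adipocytes and macrophages, was the member whose CAC libraries were all below the controls. Its level was 149, 139 and 111 CPM in CONT and 97.4, 29.7 and 42.1 CPM in CAC. CAC 1 lay just under the lowest control, and the other CAC libraries were far under it. The means were 133 ± 19.7 CPM and 56.4 ± 36.1 CPM, and the log2FC was -1.24 (SE 0.45, edgeR unadjusted p = 0.0297, edgeR adjusted p = 0.334). The DESeq2 adjusted p was 0.123, and the limma adjusted p from voom was 0.0467. The edgeR log2FC was -1.13 without CONT 1, -0.92 without CAC 2 and -1.78 without CONT 1 and CAC 1. Without CAC 1 the log2FC was -1.85 (SE 0.28, edgeR adjusted p = 0.170), and DESeq2 then called the gene (DESeq2 adjusted p = 5.1e-08). The annotated copies Fabp5l2 and AC109261.2 held 4 and 2 reads against 11532 for Fabp5.

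Fabp3, the FABP of heart and skeletal muscle, was close to the lower limit of these libraries. It had 4, 89 and 15 reads in CONT 1, 2 and 3 and 7, 28 and 22 reads in CAC 1, 2 and 3. Of its 165 reads, 89 were in CONT 2, and the groups overlapped. The log2FC was -1.15 (SE 0.98, edgeR adjusted p = 0.631) and became 0.51 without CONT 2, -0.67 without CAC 1 and -1.58 without CONT 1. Zcchc17, which overlaps Fabp3 on the opposite strand, held 3280 reads, the copy Fabp3-ps1 held 12 and the overlapping Gm10570 held 3, and the strand setting of the counting was not given in the sources used here, so the Fabp3 values are uncertain. The 6 skeletal muscle markers, of which Acta1 gave most of the high sums (39.0 CPM in CONT 1 and 40.1 CPM in CAC 1), summed to 45.8 CPM in CONT 1 and 47.6 CPM in CAC 1, the libraries with the fewest Fabp3 reads in their groups, and to between 8.10 and 11.4 CPM in the other 4.

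Aqp7 had the same order of libraries as Fabp4 except at the low end. Its level was 341, 115 and 146 CPM in CONT 1, 2 and 3 and 207, 64.7 and 46.4 CPM in CAC 1, 2 and 3. CAC 1 was within the range of the controls and CAC 2 and CAC 3 were below all of them. The log2FC was -0.92 (SE 0.67, edgeR adjusted p = 0.572) with all libraries, -1.83 (SE 0.61, edgeR adjusted p = 0.360) without CAC 1, where DESeq2 called it (DESeq2 adjusted p = 0.0333), and -0.29 without CONT 1. It was -0.65 without CAC 2, -0.55 without CAC 3 and -1.19 without CONT 1 and CAC 1.

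All 9 genes passed the filter on low counts. Of these, 2 had an unadjusted edgeR p under 0.05, Slc27a1 on the higher side (6.31% of all genes tested) and Fabp5 on the lower side (6.95%). The groups did not overlap for the same 2 genes, and for 22.5% of all genes tested (11.8% with CAC above and 10.7% with CAC below). The median log2FC of the 9 was -0.79, against -0.055 over all genes tested, and 2 of the 9 had a log2FC above 0, as did 7943 of the 17296 genes tested. The median of the 9 moved with the libraries used, from -0.25 without CONT 1 to -1.03 without CONT 3, with -0.44 without CONT 2, -0.43 without CAC 2 and -0.48 without CAC 3, and it was -0.37 in limma on log2(FPKM + 1). Left out in turn, CONT 1, CONT 2, CONT 3, CAC 2 and CAC 3 each left 1 gene, Slc27a1, with an unadjusted edgeR p under 0.05, where 15.6%, 9.3%, 9.25%, 7.24% and 8.32% of all genes tested had one. Without CAC 1 there were 4, Slc27a1, Cav1, Fabp5 and Aqp7 (11.7% of all genes), and with CONT 1 and CAC 1 both left out there were 6, these with Cd36 and Fabp4 (20.2% of all genes). The latter fit has 2 against 2 libraries and was added after the data were seen. Since CAC 1 stands apart at several of these same genes, its larger count is no independent support. None of these edgeR fits gave any of the 9 an adjusted p under 0.05.

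**Figure D2:**
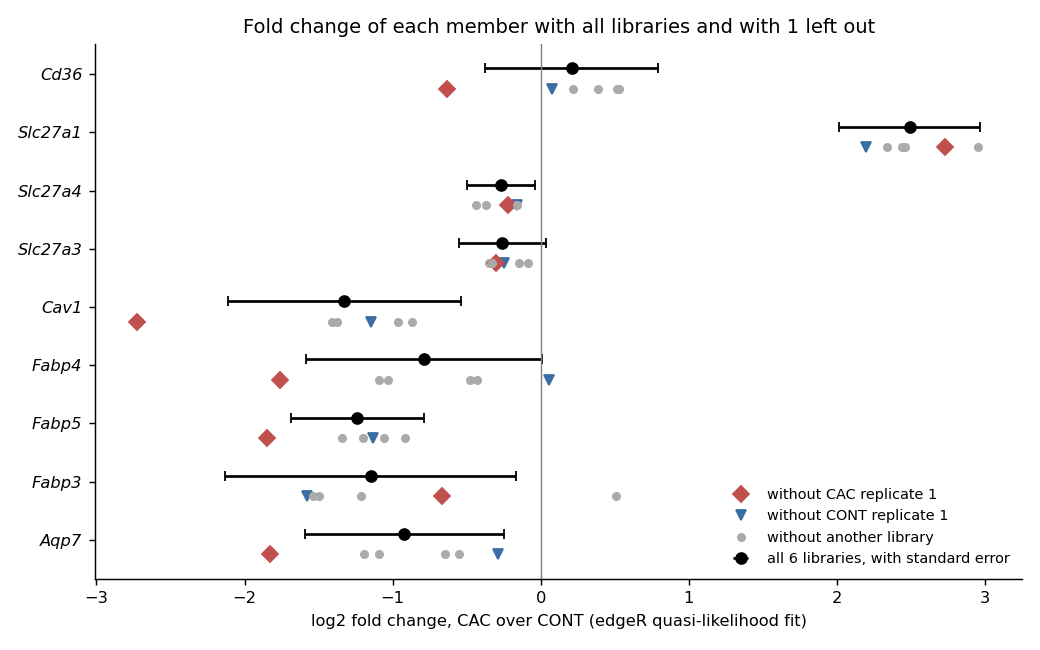
log2 fold change of CAC over CONT from edgeR for each of the 9 genes, with all 6 libraries (black, bar 1 SE) and with 1 library left out (points beneath, CAC 1 as red diamonds and CONT 1 as blue triangles). Slc27a1 stays between 2.20 and 2.95, Cav1 moves from -1.33 to -2.72 without CAC 1, and Cd36, Fabp4 and Fabp3 cross 0 when 1 library is left out.

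CAC 1 was more than 1 above the mean of the other CAC libraries on the log2 scale at 5 of the 9 genes. It was above the mean of CAC 2 and CAC 3 by 1.84 on the log2 scale for Cd36, 2.66 for Cav1, 1.99 for Fabp4, 1.91 for Aqp7 and 1.46 for Fabp5, while Slc27a1 differed by -0.63 and Fabp3, with few reads, by -1.49. A difference above 1 was found for 7.05% of all genes tested and one above 2 for 1.27%. In 5 of the 9 genes CAC 2 and CAC 3 were both below every control, which held for 18.8% of all genes tested, and in 4 of these (Cd36, Cav1, Fabp4 and Aqp7) CAC 1 was not, which held for 8.11%. No label sets CAC 1 apart, and the cause of the difference between these mice was not tested.

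Levels can be compared between genes only per length, and the length used matters here. The gene length in the deposited table was 4489 bases for Fabp4, its whole genomic span, against 896 bases for its principal transcript. For Fabp5 the 2 lengths were 3567 and 987 bases, and for Slc27a1 they were 5835 and 2795 bases. On CPM per kilobase of principal transcript, the mean level in CONT was highest for Fabp4 (13365), then Cav1 (845) and Cd36 (661), and then Slc27a1 (181), Fabp5 (135) and Aqp7 (79.3), with Slc27a4 (12.6), Slc27a3 (4.19) and Fabp3 (1.998) at the low end. Neighbours in this order whose ranges over the controls overlapped were Cav1 and Cd36, Slc27a1 and Fabp5, Fabp5 and Aqp7, and Slc27a3 and Fabp3. In CAC the order began with Fabp4 (7745), Slc27a1 (1019), Cd36 (764) and Cav1 (337), and from Slc27a1 to Aqp7 (41.9) each gene overlapped the next. With the lengths in the table the order changed in several places. In CONT, Cd36 (626 CPM per kilobase) came before Cav1 (619) and Aqp7 (70.9) before Fabp5 (37.3), both with overlapping ranges. In CAC, Slc27a1 (488) came after Cd36 (723), Aqp7 (37.4) came before Fabp5 (15.8), and the range of Fabp4 (from 720) overlapped that of Cd36 (to 1391).

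Among the 3 FATP members, Slc27a1 made up 84.0%, 92.8% and 93.6% of the summed CPM per kilobase of principal transcript of Slc27a1, Slc27a3 and Slc27a4 in CONT 1, 2 and 3, and 98.1%, 98.8% and 98.8% in CAC. The ratio of Slc27a1 to Slc27a4, which does not depend on library scaling, was taken per kilobase of the gene length in the deposited table, as were the ratios below. The choice of length shifts every library's ratio by the same factor and leaves differences between the groups as they are. It was 3.54, 9.33 and 10.2 in CONT and 37.4, 62.3 and 53.5 in CAC. Every CAC ratio was above every CONT ratio, and the group means differed by 2.84 on the log2 scale. A two-sided exact permutation test gave p = 0.1, the smallest that 3 against 3 libraries can give (adjusted over 4 ratios, exact permutation p = 0.4).

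The binding protein ratios and the ratio of Cd36 to an adipocyte gene overlapped between the groups with all libraries. Fabp4 made up 97.9% to 99.4% of the summed CPM per kilobase of principal transcript of Fabp3, Fabp4 and Fabp5 in every library, and the log2 ratio of Fabp5 to Fabp4 differed by -0.55 (exact permutation p = 0.5). This difference depended on the controls used, at -0.16 without CONT 2 and -1.05 without CONT 1, where every CAC ratio was below both remaining controls (exact permutation p = 0.1, the smallest that 3 against 2 libraries can give). The log2 ratio of Fabp3 to Fabp4 differed by 0.26 (exact permutation p = 0.9), and its sign turned without CONT 1 (-1.05), CAC 2 (-0.53) or CAC 3 (-0.20). Plin1 encodes perilipin 1, the coat of adipocyte lipid droplets, and Cd36 over Plin1 was 2.28, 1.66 and 1.77 in CONT and 2.90, 2.40 and 1.76 in CAC, a log2 difference of 0.29 (exact permutation p = 0.3). CAC 1 exceeded CAC 3 by less in this ratio than in the Cd36 level itself, but this depends on the adipocyte gene chosen. Plin1 was itself higher in CAC 1 than the mean of CAC 2 and CAC 3, by 1.34 on the log2 scale. Over the 10 adipocyte markers that difference ran from -3.58 (Cidea) to 8.47 (Lep), and it was -0.018 for Pnpla2.

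**Figure D3:**
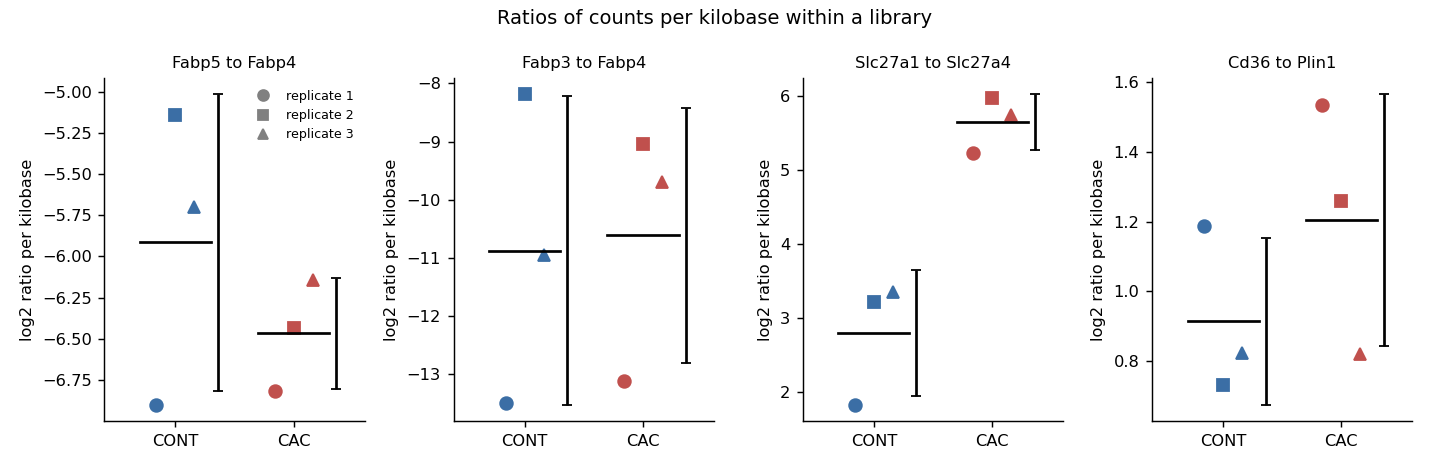
log2 ratio of counts per kilobase (gene length in the deposited table) within each library for 4 pairs of genes, in CONT (blue) and CAC (red). Lines are means, bars are 1 SD (n = 3) and symbols give the replicate number. The ratio of Slc27a1 to Slc27a4 separates the groups, with log2 means of 2.80 in CONT and 5.64 in CAC, and the other 3 ratios overlap.

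The genes whose log2 CPM followed a member most closely were sought among 5772 abundant genes, over 6 libraries. Each correlation is across the same 6 libraries and is a description, since the points share their groups, their depth and the libraries that stand apart. Slc27a1 was most like Uqcrc2 (r = 0.999), a subunit of respiratory complex III, and Atp5b (r = 0.998), the catalytic beta subunit of ATP synthase. Uqcrc2 was at 108, 134 and 155 CPM in CONT and 211, 234 and 250 CPM in CAC, a far smaller span than that of Slc27a1. Cav1 was most like Lep (r = 0.997), which encodes the adipocyte hormone leptin, and Cav2 (r = 0.995), its partner in caveolae. Lep was at 697, 409 and 414 CPM in CONT and 512 CPM in CAC 1, but at 3.996 and 0.415 CPM in CAC 2 and CAC 3. The mice in which Cav1 was low were also those in which Lep was low.

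For the other members the closest genes were Pdgfb and Rgcc for Fabp4 (r = 0.997 and 0.996), Trappc6b and Anxa3 for Aqp7 (0.996 and 0.993), Tmem45b and Cep85 for Fabp5 (0.990 and 0.988), and Mxd4 and Ptpn11 for Cd36 (both 0.982). Podxl and Adi1 were closest to Slc27a3 (0.971 and 0.970), Chmp1a and Diaph1 to Slc27a4 (0.966 and 0.962), and Irgm2 and Mfsd11 to Fabp3 (0.943 and 0.935). Pdgfb, a platelet-derived growth factor made by endothelium, was at 166, 65.6 and 80.1 CPM in CONT and 119, 48.4 and 49.8 CPM in CAC, with the same order of high and low libraries as Fabp4. Among the members themselves the closest pair was Fabp4 and Aqp7 (r = 0.97), then Cav1 and Fabp5 (0.93) and Cav1 and Aqp7 (0.91), while Slc27a1 and Fabp5 ran opposite (-0.87).

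**Figure D4:**
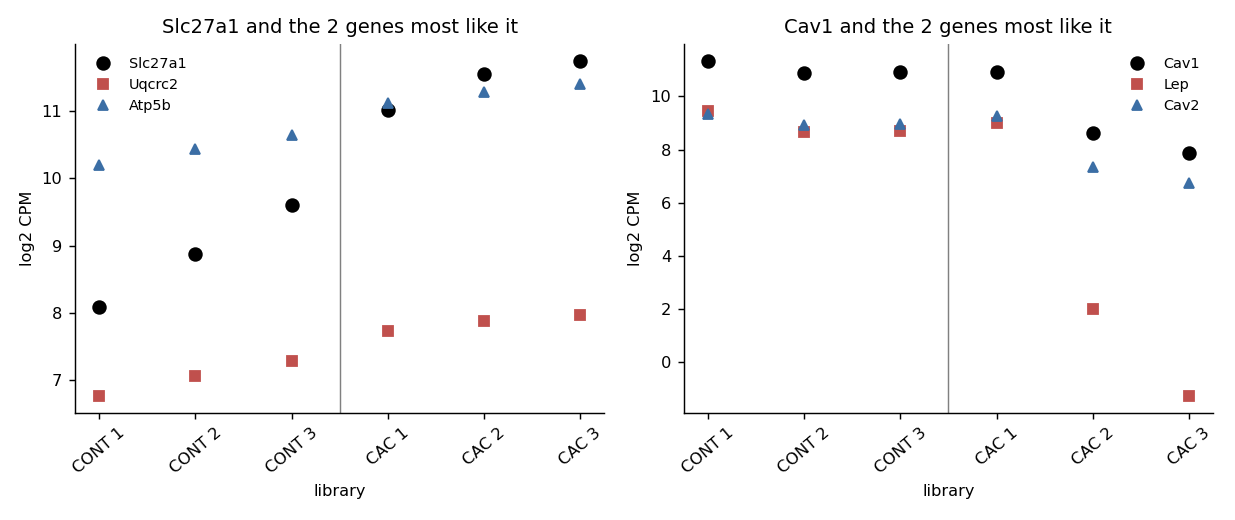
log2 CPM of Slc27a1 (left) and Cav1 (right) in each library, each with the 2 genes most correlated with it over the 6 libraries. Slc27a1, Uqcrc2 and Atp5b are higher in all 3 CAC libraries, and Lep is at 3.996 and 0.415 CPM in CAC 2 and CAC 3, where Cav1 is at 394 and 233 CPM.

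Another 46 genes of fatty acid uptake, binding, activation and their regulation were examined, of which 36 passed the filter on low counts. At an unadjusted edgeR p under 0.05 there were 0 of these 36 on the higher side (6.31% of all genes tested) and 3 on the lower side (6.95%), and 0 passed adjustment. DESeq2 called 0 of them after adjustment (5.55% of all genes), and voom with sample quality weights called 3 (5.53% of all genes), Acbd4 (limma adjusted p = 0.0458) and Gk (limma adjusted p = 0.0458) on the lower side and Rxra (limma adjusted p = 0.0438) on the higher side. Their median log2FC in edgeR was -0.13. The other tested FATP genes, Slc27a2 and Slc27a6, had log2FC of -2.39 (SE 1.26, edgeR adjusted p = 0.452) and -1.08 (SE 1.03, edgeR adjusted p = 0.672), and both were far lower in CONT 1 than in the other controls. Cavin3, which helps shape caveolae, was at 317, 137 and 128 CPM in CONT and 125, 49.2 and 53.5 CPM in CAC, with a log2FC of -1.35 (SE 0.52, edgeR adjusted p = 0.350). Acbd4, an acyl-CoA binding protein, was at 174, 113 and 108 CPM in CONT and 85.1, 60.3 and 50.0 CPM in CAC, with a log2FC of -1.01 (SE 0.29, edgeR adjusted p = 0.275). For both genes every CAC library was below every control, as for 10.7% of all genes tested. Tcf15, which with Meox2 drives fatty acid transport genes in the endothelium of heart and muscle, had a log2FC of -1.83 (SE 0.72, edgeR adjusted p = 0.357), at 164, 31.2 and 35.3 CPM in CONT and 32.5, 15.3 and 16.9 CPM in CAC. Its level in CONT 1 was far above the other controls, its groups overlapped, and voom gave a log2FC of -0.98.

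Of the other genes of the caveolae list, Cav2 was at 654, 490 and 499 CPM in CONT, at 617 CPM in CAC 1, and at 163 and 106 CPM in CAC 2 and CAC 3. As for Cav1, CAC 2 and CAC 3 were below every control and CAC 1 was not, with a log2FC of -0.89 (SE 0.65, edgeR adjusted p = 0.574). The list was not uniform, since Cavin2 had a log2FC of 0.30 and Pacsin2 one of -0.033. Acsl1, the main long-chain acyl-CoA synthetase of adipocytes, was at 494, 1378 and 1876 CPM in CONT and 3792, 2136 and 2789 CPM in CAC, with every CAC library above every control and a log2FC of 1.22 (SE 0.54, edgeR adjusted p = 0.393). The groups of Acsl5 and of Scarb2, a relative of Cd36 in lysosomes, also did not overlap, with log2FC of 0.16 and 0.50. In all, 3 of the 36 other pathway genes had every CAC library above every control (11.8% of all genes tested). Every CAC library was below every control for 2 of them (10.7%), so neither share exceeds that of all genes. Dbi, the acyl-CoA binding protein with the highest FPKM, was at 3255, 987 and 947 CPM in CONT and 1117, 368 and 500.4 CPM in CAC, with a log2FC of -1.39 (SE 0.66, edgeR adjusted p = 0.420). CONT 1 was far above the other controls, and CAC 1 was above CONT 2 and CONT 3.

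**Figure D5:**
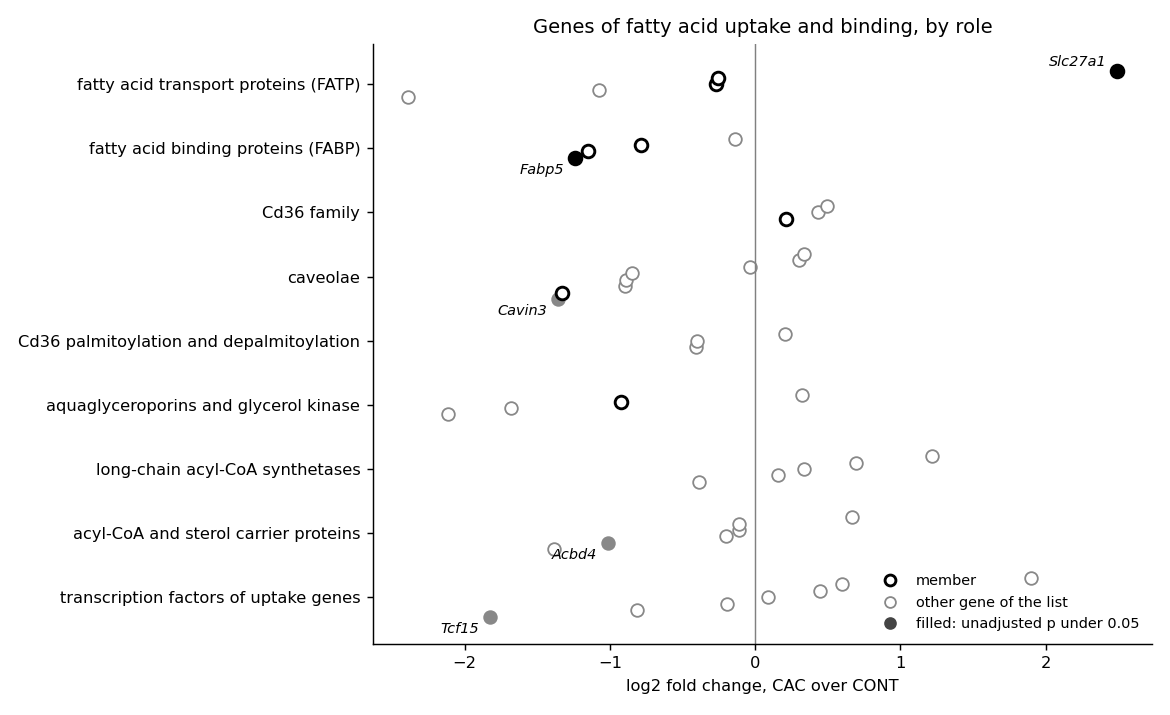
log2 fold change of CAC over CONT from edgeR for the 9 genes (black rings) and 36 other tested genes of 9 lists (grey), by role. Filled points have an unadjusted p under 0.05, and these are Slc27a1 on the higher side and Fabp5, Cavin3, Acbd4 and Tcf15 on the lower side.

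Of the transcription factors, Cebpa, a factor of adipocyte differentiation with the highest FPKM of its list, had a log2FC of -0.20 (SE 0.29, edgeR adjusted p = 0.802), and Pparg, the receptor that drives many genes of this set, one of 0.089 (SE 0.24, edgeR adjusted p = 0.902). Rxra, the partner of PPARγ on DNA, was at 292, 204 and 204 CPM in CONT and 290, 363 and 405 CPM in CAC, with a log2FC of 0.60 (SE 0.26, edgeR adjusted p = 0.383). Zdhhc5, the most abundant of 3 genes of Cd36 palmitoylation, had a log2FC of 0.20 (SE 0.27, edgeR adjusted p = 0.779).

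Several of the 9 genes are also expressed outside adipocytes, Cd36, Cav1 and Fabp4 in endothelium and Fabp4, Fabp5 and Cd36 in macrophages. Of 10 endothelial markers, 0 had an unadjusted edgeR p under 0.05, and their sum ran from 1591 to 3659 CPM in CONT and from 2196 to 2554 CPM in CAC. CONT 1, the highest library for Cav1, Fabp4, Fabp5, Aqp7 and Slc27a4, was also the highest for this sum. The CAC libraries did not follow that order, since the sum was 2430, 2196 and 2554 CPM in CAC 1, 2 and 3. CAC 3, with the highest sum in CAC, was the lowest library for Cav1 and Aqp7. The 10 macrophage markers summed to 659, 1770 and 1744 CPM in CONT 1, 2 and 3 and to 1245, 786 and 1044 CPM in CAC 1, 2 and 3. CONT 2 and CONT 3 were above every CAC library, and CONT 1 was below every one. The log2FC was above 0 for 2 of the 10 (median -0.44). Cd14 was on the higher side and C1qa on the lower side at an unadjusted p under 0.05. Among 8 fibroblast and progenitor markers, 5 (Col1a1, Col3a1, Dpt, Lum and Pi16) were on the lower side at that threshold (6.95% of all genes tested), and the sum was 2234 to 2642 CPM in CONT and 1382 to 2148 CPM in CAC. Dcn, another gene of this list, ran the other way, at 973, 780 and 824 CPM in CONT and 1297, 1498 and 1099 CPM in CAC, with a log2FC of 0.60 (SE 0.27, edgeR adjusted p = 0.395). Of the 6 pericyte and smooth muscle markers (760 to 865 CPM in CONT and 574 to 1137 CPM in CAC), Rgs5 and Cspg4 were on the lower side, and the other 4 had log2FC above 0, Myh11 (0.72), Acta2 (0.34), Notch3 (0.20) and Tagln (0.12). The part of these cells in the levels of Cav1, Fabp5 and the others was not tested.

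Epididymal genes were high in some controls and not in others. The 6 epididymal epithelium markers summed to 8955 CPM in CONT 3, 208 CPM in CONT 1 and 2.98 CPM in CONT 2, and to at most 0.604 CPM in any CAC library. Gpx5, the leading gene of that epithelium, had 118445 reads in CONT 3, 4 in CONT 1 and 0 in CONT 2, and Adam7, the only one of the 6 that passed the filter, was on the lower side at an unadjusted edgeR p of 0.00345. CONT 3 was the highest control for Cd36, Slc27a1 and Slc27a3 and not for Slc27a4, Cav1, Fabp3, Fabp4, Fabp5 or Aqp7. Without CONT 3 the log2FC of Slc27a1 was 2.95 and the ratio of Slc27a1 to Slc27a4 differed by 3.12 on the log2 scale, both larger than with it. The mesothelial markers summed to 146 to 188 CPM in CONT and 62.3 to 191 CPM in CAC, and those of heart and brown fat to 21.3 to 37.5 CPM and 23.2 to 80.8 CPM. At an unadjusted p under 0.05, Lrrn4 of mesothelium and Myh4 of muscle were on the higher side. Cox7a1 of heart and brown fat was on the lower side. Most other mesothelial and heart and brown fat markers went the other way from Lrrn4 and Cox7a1. The log2FC was above 0 for 1 of 6 mesothelial markers (median -0.50) and for 3 of the 4 heart and brown fat markers tested (median 0.89). It was above 0 for 4 of 6 muscle markers (median 0.69). Ucp1, the uncoupling protein of brown fat, had at most 6 reads in any library.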

How the data were processed

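The mRNA of 6 eWAT libraries, 1 per mouse, was sequenced by the authors. They cleaned the reads with their own scripts and aligned them with HISAT2 2.0.5, and the submitters' processing notes name featureCounts 1.5.0-p3. The deposited counts are whole reads per gene, without normalization. The deposited FPKM values are the same counts scaled to gene length and library size, the latter 1.21 to 1.25 times the TMM-adjusted total. The table has 507 assembled loci without a gene symbol, which were kept.

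Groups came from the sample labels. Counts were fitted in R 4.3.3 with edgeR 4.0.16 (quasi-likelihood, robust estimation, TMM, its expression filter by group, condition only), with Benjamini-Hochberg adjustment over 17296 genes and a common dispersion of 0.266. DESeq2 1.42.0, limma 3.58.1 with voom quality weights, and limma on FPKM (log2 after adding 1 or 0.1; genes reaching an FPKM of 0.5 in 3 or more libraries) were alternatives, and fold changes on the FPKM scales understate those of low genes. The remaining alternatives were other normalizations, other filters, edgeR without robust estimation, the replicate number as a block, and each library left out. DESeq2 with a library left out, the fit without CONT 1 and CAC 1, and the principal transcript length were added after seeing the data. Ratios were compared with exact two-sided permutation tests. Scripts were tested on simulated data. No library was a copy of another of its group: the chi-square statistic over genes was 66.7 to 398 per degree of freedom.

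The members and gene lists were chosen with earlier results of these data known. Genes named are the members, genes of the pathway and marker lists with an unadjusted edgeR p under 0.05 or the highest FPKM of their list, the 2 genes most correlated with each member, and genes that overlap or copy a member. Named after their values were seen were Cav2 with its values, Cavin2, Pacsin2, Acsl5, Scarb2, Pparg, Rxra, Slc27a2, Slc27a6, Gk, Acta1, Plin1, Retn, Lipe, Cfd, Car3, Cidea, Dcn, Myh11, Acta2, Notch3, Tagln, Gpx5, Ucp1 and the genes of the closing observations.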

Additional observations from a re-analysis of the deposited data

How the results depend on the processing

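Genes with an adjusted p under 0.05 numbered 0 in edgeR with all libraries and with any 1 left out, 959 in DESeq2, 956 in voom, 8 in limma on log2(FPKM + 1) and 11 on log2(FPKM + 0.1). An unadjusted p under 0.05 was reached by 2294 genes, by 4920 in voom, by 1384 to 3032 with 1 library left out and by 3845 without CONT 1 and CAC 1. Of the 9 members, an adjusted p under 0.05 was reached by 0 in edgeR, 1 in DESeq2 (Slc27a1, 5.55% of all genes) and 2 in voom (Slc27a1 and Fabp5, 5.53%). In DESeq2 with 1 library left out it was reached by 1 to 4 (3.32% to 11.3% of all genes), the 4 being without CAC 1 (7.84%). An unadjusted p under 0.05 was reached by 2 members (2294 of all genes). With Cav1 added it was reached by 3 in voom (4920), in limma on log2(FPKM + 1) (2135) and on log2(FPKM + 0.1) (2045). With 1 library left out the members numbered 1 to 4 (1384 to 3032 of all genes), and without CONT 1 and CAC 1 they numbered 6 (3845). Of the other pathway genes an unadjusted p under 0.05 was reached by 3, by 7 without a filter (2608 of all genes), 5 with at least 10 counts in every library (2172 of all genes), 12 in DESeq2 (3230), 16 in voom (4920), 7 in limma on log2(FPKM + 1) (2135), 0 (without CAC 2) to 10 (without CAC 1) with 1 library left out (1384 and 2243), and 16 without CONT 1 and CAC 1 (3845). The stricter count filter removed Fabp3, and the cause of the other shifts was not tested.

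Cd36 (0.21) ran from -0.63 to 0.53 with 1 library left out and took the opposite sign in voom (-0.47), in limma on log2(FPKM + 1) and log2(FPKM + 0.1) (-0.026 each), without CAC 1 (-0.63, and -0.65 in DESeq2) and without CONT 1 and CAC 1 (-0.80). Fabp3 ran from -1.58 without CONT 1 to 0.51 without CONT 2 (0.52 in DESeq2), and Fabp4 from -1.76 without CAC 1 to 0.059 without CONT 1 (0.094 in DESeq2). The log2 ratio of Fabp3 to Fabp4, 0.26 with all libraries, ran from -1.05 without CONT 1 to 1.61 without CONT 2, and was -0.53 without CAC 2 and -0.20 without CAC 3. Slc27a1 kept its sign in all 23 alternatives, with a log2FC from 2.20 to 2.99 and an adjusted p from 8.69e-12 (DESeq2 without CONT 3) to 0.684 (edgeR without CAC 2). Slc27a3, Slc27a4, Cav1, Fabp5 and Aqp7 also kept their sign in each of their 23. RLE and upper-quartile scaling moved the median of all genes by 0.0055 and -0.029 on the log2 scale.

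Replicate numbers are shared by the groups, but the labels tie no CAC mouse to a CONT mouse, and deviations of same-numbered libraries correlated at 0.31, -0.15 and -0.22, with 1 of 3 CAC libraries closest to its own number. In the fit with the replicate number as a block, 1 gene had an adjusted p under 0.05 and 1992 genes an unadjusted p under 0.05, 4 members (Slc27a1, Cav1, Fabp5 and Aqp7) and 7 other pathway genes among them, and the log2FC of Cd36 was -0.084.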

Other observations

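Some FABP, acyl-CoA synthetase and aquaporin genes that adipocytes are not known for had most of their reads in 1 or 2 libraries, and were named after their values were seen. Fabp9, the FABP of male germ cells, had 414 reads in CONT 2 and 637 in CAC 3 and between 3 and 9 in the other 4 libraries, and the filter on low counts left it untested. Acsl6 had 152 reads in CONT 2 and 227 in CAC 3, 29 and 39 in CONT 3 and CAC 2, and 0 in CONT 1 and CAC 1. Fabp12 was also highest in CONT 2 (46 reads) and CAC 3 (69 reads). Fabp1, the FABP of liver and intestine, had 103 reads in CAC 3, at most 7 in any control and 0 in CAC 1 and CAC 2. In the same library Fabp6, the ileal bile acid binding protein, had 12 reads and at most 1 elsewhere, and Fabp2, the intestinal FABP, had 6 reads and 0 elsewhere, where a count of 0 allows up to 3. Aqp3, an aquaglyceroporin of epithelia, had 559 reads in CAC 2 and at most 10 in any other library. CONT 2 is also the library with the most Fabp3 reads (89 of 165). Whether RNA of other tissues took part in these values was not tested.

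Among the regulators and glycerol genes, Ppara, a fatty acid sensor of liver and brown fat, was at 1.43, 9.77 and 8.95 CPM in CONT 1, 2 and 3 and at 8.62, 38.4 and 28.8 CPM in CAC 1, 2 and 3, with a log2FC of 1.90 (SE 0.81, edgeR adjusted p = 0.379). CAC 1 was again the library that differed from the other CAC libraries, lying within the control range. Gk, glycerol kinase, was at 6.96, 49.9 and 60.5 CPM in CONT and 7.39, 12.1 and 17.1 CPM in CAC, and Aqp9 at 1.25, 14.7 and 23.4 CPM in CONT and 3.57, 1.74 and 3.78 CPM in CAC. In both genes CONT 1 was far below the other controls, while for Aqp7 CONT 1 was the highest library, and the log2FC were -1.68 (SE 0.75, edgeR adjusted p = 0.396, limma adjusted p from voom 0.0458) and -2.12 (SE 0.94, edgeR adjusted p = 0.395).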
